A study of Mus musculus with 18 samples.

Results

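The 10 genes described here, *Sox7*, *Sox17*, *Sox18*, *Erg*, *Fli1*, *Ets1*, *Tal1*, *Gata2*, *Gata5* and *Tbx3*, encode transcription factors linked to endothelial cells, and were read in purified glomerular cells of *Cd2ap* mutant mice. They were taken by symbol from the annotation of the deposited array table, and all 10 were found among the 22909 genes named there. Glomeruli of mice 5 weeks of age were dissociated and the 3 major cell types were sorted by FACS on a GFP transgene, which was *Tie2-GFP* for endothelial cells and *Meis1-GFP* for mesangial cells. Each cell type came from Cd2ap-/- mice (B6.129X1-*Cd2ap*tm1Shaw/J, lacking the slit diaphragm adapter CD2AP in every cell) and from wild type mice, with 3 Affymetrix Mouse Gene 1.0 ST arrays in each of the 6 groups, 18 arrays in all. The column names mark the genotype of the mesangial controls with a plus and a minus sign, whereas the genotype field of the sample records reads wild type, the name used here, and the titles read control. Whether these mesangial controls were heterozygous cannot be told from the sources used here. The records speak of biological triplicates without naming single mice, and whether mice were pooled is not given in the sources used here. Arrays within a group are called A, B and C only to tell them apart.

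Endothelial identity is held by overlapping families of DNA-binding proteins rather than by a single master regulator. The ETS factors ERG, FLI1 and ETS1 bind a purine-rich core found in the enhancers of most endothelial genes, and the SoxF factors SOX7, SOX17 and SOX18 act beside them in arterial and lymphatic specification. TAL1 and GATA2 belong to a complex with LMO2 that serves both blood and endothelial progenitors, GATA5 is a zinc finger factor of the heart and vessel wall, and TBX3 is a T-box factor best known for patterning limb, heart and mammary gland. In the glomerulus the endothelium is the fenestrated inner layer of the filter, opposite the podocytes, and the mesangium is the pericyte-like stalk between the capillary loops.

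The RefSeq promoter table held 8 start sites for 4 of the 10 genes (*Erg*, *Gata2*, *Gata5* and *Tal1*; build GRCm38.p6). The 250 bases before each start were searched on both strands for an ETS core (AGGAAG or CGGAAG), a SOX core (AACAAT) and a GATA core (AGATAA or TGATAA). Both stretches printed here are shown because their genes were high in the same cells and lay at opposite ends of this search, 1 with a match to every core and 1 with none. Capitals mark the matches, and both are written along the gene's strand, which is the minus strand. The stretch for *Erg* is chr16:95459349-95459598, before the most downstream of its 3 starts, and that for *Gata5* is chr2:180334680-180334929.
Erg: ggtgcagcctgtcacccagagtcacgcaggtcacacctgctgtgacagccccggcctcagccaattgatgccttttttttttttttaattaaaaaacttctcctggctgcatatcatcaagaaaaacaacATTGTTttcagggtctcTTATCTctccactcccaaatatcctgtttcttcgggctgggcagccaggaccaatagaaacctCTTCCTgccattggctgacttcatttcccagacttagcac
Gata5: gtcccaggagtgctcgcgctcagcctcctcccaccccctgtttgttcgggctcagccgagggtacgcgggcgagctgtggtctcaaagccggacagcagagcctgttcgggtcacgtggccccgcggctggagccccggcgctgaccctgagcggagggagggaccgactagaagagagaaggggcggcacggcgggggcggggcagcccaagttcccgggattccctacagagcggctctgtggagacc
In the *Erg* stretch the SOX, GATA and ETS matches began 120, 103 and 40 bases before the start and all lay on the opposite strand. Of the other 6 start sites, only the upstream one of *Tal1* held a match, to the GATA core. Over all 32851 promoters of this length in the table, 39.2% held an ETS core, 9.42% the SOX core and 16.6% a GATA core, so that a match to the ETS core alone is common. A match is a description of these letters and no match says only that they are missing from this window.

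Values are RMA signals on a linear scale, which cannot be set against each other between genes because each probe set has its own response. Array medians ran from 62.8 to 71.6, and a gene entered a comparison when at least 1 of its arrays reached a signal of 100, so values under 100 are taken as low signals without further order. Differences are on the log2 scale, tested with limma over all transcript clusters that reached this minimum and adjusted by Benjamini-Hochberg, and a gene is said to be called at an adjusted p under 0.05. The sorted cells matched their labels for the most part. Endothelial arrays held summed signals of 22241 to 26975 for 24 endothelial genes such as *Cdh5* and *Kdr*, against 2340 to 8877 in podocyte arrays. Sums over 12 mesangial markers were 10326 to 14489 in mesangial and 1268 to 1585 in endothelial arrays, and podocyte arrays lay between, at 2666 to 6401. Wild type mesangial array C stood apart. Its endothelial sum was 12168 against 6105 and 6329 in arrays A and B, and its sum over 12 podocyte markers was 5013 against 1221 and 1388. Its sum over 7 erythroid genes was 7422 against 754 and 461, and that over 10 tubule genes was 2183 against 558 and 550. *Cd2ap* itself was not lower in the endothelial arrays labelled mutant (891 to 966, against 757 to 859 in wild type). In the podocyte arrays (1478 to 1512, against 1546 to 2108) and the mesangial arrays (797 to 870.4, against 922 to 1123) those labelled mutant lay below without a call, so genotype directions rest on the labels.

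**Figure D1:**
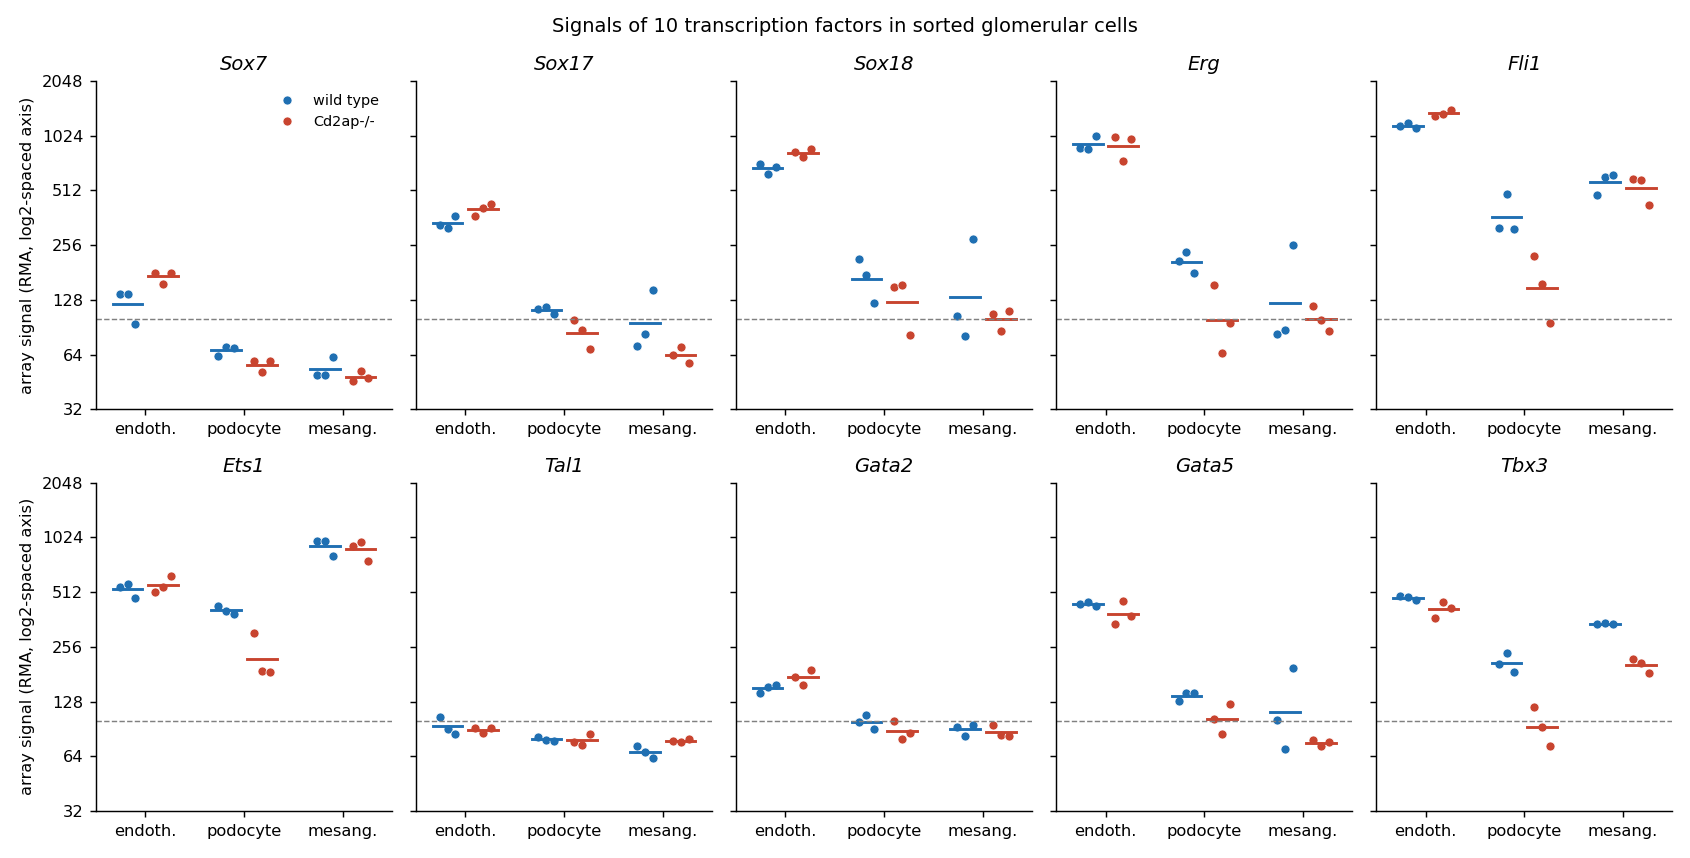
Signals of the 10 transcription factors in endothelial, podocyte and mesangial arrays, wild type in blue and Cd2ap-/- in red, on an axis spaced by log2 of the linear RMA signal. Points are single arrays, bars are means of the log2 signals of 3 arrays and the dashed line is the signal of 100; most genes are highest in endothelial arrays, *Ets1* is highest in mesangial arrays and *Tal1* lies near the dashed line throughout.

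The first comparison asks how far each factor marks the endothelium among the 3 cell types. In wild type arrays 9 of the 10 genes were called higher in endothelial cells than in podocytes, where 22.2% of all transcript clusters tested were called higher. Against mesangial cells 9 were called higher, beside 15.0% of all clusters, and *Ets1* was called lower, beside 15.5%. In Cd2ap-/- arrays 9 of the 9 genes tested were called higher than in podocytes (26.1% of all clusters), 8 of 9 were called higher than in mesangial cells (21.9%) and *Ets1* was again the one called lower (12.8%). Some genes reached 100 in the endothelial group alone and so could enter only if high there, namely *Sox7* and *Tal1* (wild type, podocytes), *Sox7*, *Tal1* and *Gata2* (wild type, mesangial cells), *Sox7* and *Sox17* (Cd2ap-/-, podocytes), and *Sox7*, *Sox17*, *Gata2* and *Gata5* (Cd2ap-/-, mesangial cells). With signals under 100 raised to 100, the wild type counts called higher were 8 and 7, and those of Cd2ap-/- arrays were again 9 and 8. The wild type and mutant cell type comparisons use different arrays throughout.

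*Sox18*, whose loss or mutation disturbs lymphatic and vascular development, had the highest endothelial contrast of the SoxF genes. Wild type endothelial arrays gave 714, 631 and 687, podocyte arrays 214, 175 and 123, and mesangial arrays 105, 80.9 and 276. Cd2ap-/- arrays gave 829, 777 and 865 in endothelial cells, 151, 154 and 82.4 in podocytes, and 106, 86.1 and 111 in mesangial cells. Every endothelial array lay above every other array, and wild type mesangial array C was the highest outside the endothelium. The wild type difference was 2.02 (SE 0.19, adjusted p = 6.3e-05) from podocytes and 2.35 (SE 0.41, adjusted p = 0.0055) from mesangial cells, and the latter was 2.25 with signals under 100 raised to 100. It was also called without array C. In Cd2ap-/- arrays the differences were 2.73 (SE 0.24) and 3.03 (SE 0.12).

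*Sox17*, a determinant of arterial endothelium, followed the same order. Its wild type signals were 330.1, 318 and 372 in endothelial cells, 113, 117 and 106 in podocytes, and 70.9, 82.9 and 145 in mesangial cells. The Cd2ap-/- signals were 369.8, 408 and 433 in endothelial cells, 98.9, 87.8 and 68.4 in podocytes, and 63.8, 70.1 and 57.8 in mesangial cells. Endothelial arrays were again separate from all others, whereas 3 podocyte and 5 mesangial arrays were under 100. Differences in wild type arrays were 1.59 (SE 0.10, adjusted p = 8.0e-06) from podocytes and 1.84 (SE 0.25, adjusted p = 0.0019) from mesangial cells. The latter was 1.58 with signals under 100 raised to 100 and was also called without array C, where both remaining mesangial signals were under 100. *Sox7* is the remaining SoxF gene. Wild type endothelial arrays gave 138, 139 and 94.2 and those of Cd2ap-/- mice gave 180.4, 157 and 180.4, while podocyte arrays were at 51.0 to 70.4 and mesangial arrays at 45.5 to 62.2. Only endothelial arrays reached 100 for *Sox7*, and 5 of the 6 did. It was called higher in endothelial cells by 0.85 (SE 0.16, adjusted p = 0.0032) over wild type podocytes and by 1.19 (SE 0.18, adjusted p = 0.0027) over wild type mesangial cells, but neither call remained when signals under 100 were raised to 100 (0.31, adjusted p = 0.139 and 0.151).

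Among the 19 SOX genes of a list of the family, 10 could be tested between wild type endothelial cells and podocytes, and the 3 called higher were the SoxF genes themselves. Of these *Sox7* entered through its endothelial arrays alone, and its call was lost with signals under 100 raised to 100. The 2 called lower were *Sox5* (-0.61) and *Sox12*, a SoxC gene (-0.79, adjusted p = 0.0012). Here *Sox5* reached 100 in podocyte arrays alone, so it could enter only if high there. *Sox12* was also called lower in wild type endothelial than in mesangial cells (-0.88, SE 0.12, adjusted p = 0.0016).

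*Erg*, the ETS factor that keeps mature endothelium quiescent and its junctions closed, had the largest wild type difference from both other cell types among the 10 genes, with all arrays kept. With 1 array left out its difference from podocytes ran from 2.06 to 2.25 and that of *Sox18* from 1.80 to 2.20. From mesangial cells they ran from 2.62 to 3.43 for *Erg* and from 1.99 to 2.88 for *Sox18*, so both pairs of ranges overlapped. Wild type signals of *Erg* were 876, 870.1 and 1022 in endothelial cells, 209.6, 234 and 179 in podocytes, and 83.1, 87.3 and 257 in mesangial cells. The Cd2ap-/- signals were 1008, 741 and 988 in endothelial cells, 155, 65.6 and 95.5 in podocytes, and 118, 98.7 and 86.6 in mesangial cells. No endothelial array came near the range of the others, and array C was again the one high mesangial array. *Erg* was higher in wild type endothelial cells by 2.16 (SE 0.13, adjusted p = 4.9e-06) over podocytes and by 2.90 (SE 0.41, adjusted p = 0.0021) over mesangial cells. The latter was 2.75 with signals under 100 raised to 100 and was also called without array C, where both remaining mesangial signals were under 100. In Cd2ap-/- mice the differences were 3.19 (SE 0.30) and 3.17 (SE 0.16). Only 1 Cd2ap-/- podocyte array and 1 Cd2ap-/- mesangial array reached 100. Over the 8 other settings the differences ran from 2.965 to 3.317 and from 3.051 to 3.207.

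*Fli1*, the close relative of *Erg* that also serves megakaryocytes and blood progenitors, was not confined to endothelial arrays. Wild type endothelial arrays gave 1153, 1206 and 1129, podocyte arrays 319, 492 and 314, and mesangial arrays 484, 607 and 625. Cd2ap-/- arrays gave 1321, 1344 and 1423 in endothelial cells, 223, 157 and 95.3 in podocytes, and 592, 584 and 424 in mesangial cells. Mesangial arrays lay below endothelial arrays and, except for wild type podocyte array B, above podocyte arrays, and array C did not stand out among them. The wild type endothelial difference was 1.66 (SE 0.17, adjusted p = 0.00012) over podocytes and 1.03 (SE 0.12, adjusted p = 0.00083) over mesangial cells. The same differences were 3.19 and 1.37 in Cd2ap-/- arrays. *Fli1* was lower in podocytes than in mesangial cells by a call in Cd2ap-/- arrays (-1.82, SE 0.30, adjusted p = 0.0059) and just short of one in wild type arrays (-0.63, SE 0.20, adjusted p = 0.053).

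*Ets1*, an ETS factor of angiogenic endothelium and lymphocytes that lies next to *Fli1* among the protein-coding genes of the RefSeq table, was highest in mesangial cells. Its wild type signals were 546, 569 and 477 in endothelial cells, 428, 402 and 389 in podocytes, and 977, 984 and 809.7 in mesangial cells. The Cd2ap-/- signals were 511, 547 and 631 in endothelial cells, 307, 188 and 186 in podocytes, and 921, 969 and 761 in mesangial cells. Every mesangial array lay above every endothelial array, and every endothelial array above every podocyte array. Sums over 13 leukocyte markers were 1685 to 3882 in mesangial, 781 to 1527 in endothelial and 865 to 1705 in podocyte arrays. The part of leukocyte transcripts in the *Ets1* signals was not tested. *Ets1* was lower in endothelial than in mesangial cells in wild type arrays (-0.80, SE 0.12, adjusted p = 0.0026) and in Cd2ap-/- arrays (-0.65, SE 0.13, adjusted p = 0.0058), and without array C the wild type difference was -0.89. Over wild type podocytes it was higher by 0.38 (SE 0.10, adjusted p = 0.019), a call that was lost when any of 4 of the 6 arrays was left out (adjusted p up to 0.072) and in 1 fit over all 18 arrays (adjusted p = 0.084). Between podocytes and mesangial cells the difference was -1.18 (SE 0.11, adjusted p = 0.00046) in wild type and -1.99 (SE 0.22, adjusted p = 0.00099) in Cd2ap-/- arrays.

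Of 26 ETS genes listed, 25 were on the array, 17 were tested and 10 were called higher in wild type endothelial cells than in podocytes. Beside the members these included *Elk3* (1.71, SE 0.14), a partner of the serum response factor, and *Ets2* (1.44, SE 0.16). *Elf4* was the one called lower (-1.0, SE 0.11, adjusted p = 0.00017). Against wild type mesangial cells 6 ETS genes were called higher, *Elf4* among them (1.05), and *Ets1* was the one called lower, with 7 higher and 2 lower without array C. The list's median difference was 0.52 from podocytes and 0.27 from mesangial cells.

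*Tal1*, the basic helix-loop-helix factor of haemangioblasts, had signals that ran from 85.2 to 106 in endothelial, from 73.9 to 84.3 in podocyte and from 62.4 to 79.5 in mesangial arrays, and 1 of 18 arrays reached 100. The signals give no measure of a level, and although it was called higher in wild type endothelial than mesangial arrays (0.47, SE 0.11, adjusted p = 0.019), the call was lost when signals under 100 were raised to 100 (0.03, adjusted p = 0.71). Among its 8 partner genes *Runx1* did not reach 100 on any array, while others did. *Lmo2*, the bridging subunit of the TAL1 complex, was at 878, 859.7 and 856 in wild type endothelial arrays, at 303, 307 and 245 in podocyte arrays and at 154, 140.1 and 263 in mesangial arrays. Of the 8 complex genes 7 were tested against wild type podocytes and 5 were called higher in endothelial cells, among them *Lmo2* (1.61, SE 0.11), *Tcf4* (1.30, SE 0.12) and *Cbfa2t3* (0.70, SE 0.10).

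*Gata2*, which maintains blood progenitors and drives several endothelial genes, was moderately higher in endothelial arrays. Wild type endothelial arrays gave 142, 155 and 157 and Cd2ap-/- endothelial arrays 174, 158 and 191, against 79.9 to 108 in podocyte and 82.9 to 95.4 in mesangial arrays. Endothelial arrays did not overlap with the others, and 2 of the 12 other arrays reached 100. The wild type differences were 0.61 (SE 0.10, adjusted p = 0.0020) from podocytes and 0.74 (SE 0.10, adjusted p = 0.0014) from mesangial cells. With signals under 100 raised to 100 they were 0.56 (adjusted p = 0.0016) and 0.595 (adjusted p = 0.0013).

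*Gata5* stood out more sharply. Its wild type signals were 439.9, 449.7 and 430.3 in endothelial cells, 128, 143 and 143 in podocytes, and 101, 70.0 and 196 in mesangial cells. In Cd2ap-/- arrays it was at 341, 457 and 380.2 in endothelial cells, 103, 85.1 and 124 in podocytes, and 78.3, 73.0 and 77.1 in mesangial cells. The wild type endothelial arrays agreed closely, with an SD of 9.69 around a mean of 439.95 (n = 3). *Gata5* was higher by 1.67 (SE 0.09, adjusted p = 4.0e-06) than in wild type podocytes and by 1.98 (SE 0.34, adjusted p = 0.0047) than in wild type mesangial cells. The latter was 1.81 with signals under 100 raised to 100 and was also called without array C. These values are from the brighter of 2 transcript clusters with this symbol. The other had a mean of 92.9 in endothelial arrays and 76.6 in the rest, near the low signals, and with both averaged the wild type differences were 0.92 and 1.21, still called. The sources used here do not give the strand of either cluster, and in the RefSeq table the span of a non-coding gene, *Gata5os*, overlaps that of *Gata5*.

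*Gata3*, another gene of the family, was at 1276, 1579 and 1419 in wild type mesangial arrays, at 606, 518 and 435 in podocyte arrays and at 55.7, 64.9 and 66.4 in endothelial arrays. It was called lower in endothelial than in mesangial cells (adjusted p = 1.1e-06), and its endothelial signals were all under 100. *Gata1* and *Gata6* did not reach 100 on any array.

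*Tbx3* was measured in all 3 cell types. Wild type endothelial arrays gave 487, 483 and 463, podocyte arrays 205, 238 and 187, and mesangial arrays 342, 344 and 342. Cd2ap-/- arrays gave 369.3, 451 and 418 in endothelial cells, 119.5, 92.1 and 72.6 in podocytes, and 221, 209 and 184 in mesangial cells. Within a genotype the order endothelial, mesangial, podocyte held without overlap, and wild type array C did not differ from its group. The wild type endothelial difference was 1.19 (SE 0.11, adjusted p = 7.2e-05) over podocytes and 0.48 (SE 0.08, adjusted p = 0.0039) over mesangial cells. Podocytes were lower than mesangial cells by a called difference of -0.71 (SE 0.11, adjusted p = 0.0033) in wild type and -1.14 (SE 0.19, adjusted p = 0.0065) in Cd2ap-/- arrays. Of the 16 T-box genes listed 4 were tested against wild type podocytes, and *Tbx3* was the only one called.

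**Figure D2:**
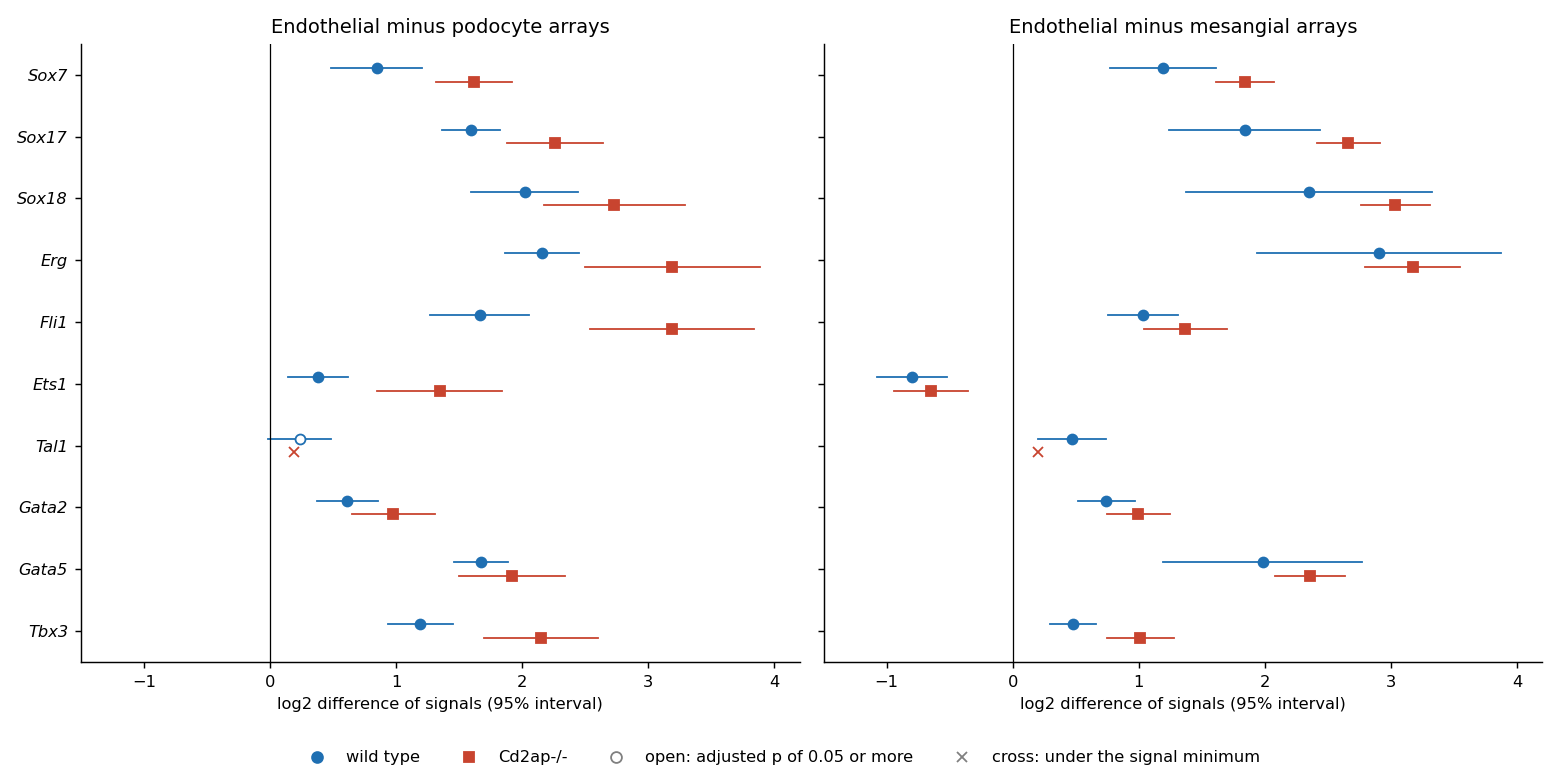
Log2 differences of endothelial minus podocyte arrays (left) and endothelial minus mesangial arrays (right) with 95% intervals, for wild type (circles) and Cd2ap-/- (squares). Filled symbols are called at an adjusted p under 0.05 and crosses mark genes below the signal minimum; *Erg* has the largest wild type differences, 2.16 and 2.90, and *Ets1* is the one gene below 0, in mesangial cells.

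Podocyte and mesangial arrays, neither of them endothelial, also differed from each other. In wild type arrays *Ets1* and *Tbx3* were called lower in podocytes, where 16.3% of all clusters were called lower, and none of the 8 genes tested was called higher (10.5%). Without mesangial array C, *Sox17* (0.55, adjusted p = 0.013), *Sox18* (0.86, adjusted p = 0.037), *Erg* (1.28, adjusted p = 0.00067) and *Gata5* (0.71, adjusted p = 0.020) were called higher in wild type podocyte arrays. The share of all clusters called higher in that fit was not counted, so these 4 calls cannot be set against it. In mesangial arrays A and B 6 of the 8 signals of these genes were under 100, so the sizes of these differences rest on low signals. The wild type podocyte arrays also held endothelial sums of 7112 to 8877, against 6105 and 6329 in mesangial arrays A and B, with *Kdr*, the VEGF receptor of endothelium, at 535 to 664 against 77.6 and 81.1. The part of these endothelial transcripts in the podocyte signals of the 4 genes was not tested. In Cd2ap-/- arrays *Fli1*, *Ets1* and *Tbx3* were called lower in podocytes (13.5% of all clusters) and none of the 7 tested was called higher (7.72%).

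The second comparison asks whether these factors differed with the *Cd2ap* genotype within each cell type. In endothelial cells none of the 10 was called, beside 1.29% of all clusters called in either direction, and none passed a low stringency screen (a change of more than 1.5-fold with p under 0.05 before adjustment), which 3.82% of all clusters passed. At an unadjusted p under 0.05 alone stood *Sox7* (0.50, SE 0.16, adjusted p = 0.18, and 0.32 without wild type array C), *Sox18* (0.28, SE 0.09, adjusted p = 0.19), *Fli1* (0.23, SE 0.08, adjusted p = 0.22) and *Sox17* (0.25, SE 0.10, adjusted p = 0.26), where 18.5% of all clusters did. For *Sox7*, *Sox18*, *Fli1* and *Gata2* all Cd2ap-/- endothelial arrays lay above all wild type ones, beside 17.7% of all clusters, and for *Tbx3* all lay below (-0.22, SE 0.10, adjusted p = 0.30), beside 7.34%. The median difference over the 10 genes was 0.14, against 0.07 over all clusters tested. *Erg* differed by -0.03 with a 95% interval from -0.35 to 0.30, *Ets1* by 0.08 with an interval from -0.18 to 0.35, and *Gata5* by -0.17 with an interval from -0.45 to 0.10.

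Among 33 other endothelial regulators, 32 were on the array, 25 were tested between the endothelial genotypes and none was called. *Nr2f2*, the venous fate factor COUP-TFII, passed the screen as higher in Cd2ap-/- endothelial arrays (0.89, SE 0.20, adjusted p = 0.080), as did *Foxc2* (0.68, SE 0.16, adjusted p = 0.092). *Hey2*, an arterial target of Notch, passed it as lower (-0.87, SE 0.28, adjusted p = 0.18), with Cd2ap-/- signals of 64.7, 142 and 65.1 against 160.3, 157 and 146. The signals of Cd2ap-/- arrays A and C were under 100, so the size of this difference and its place in the screen rest on low signals. Array B of the Cd2ap-/- endothelial group was thus close to the wild type arrays for *Hey2*. It also had the highest *Gata5* and *Tbx3* signals and the lowest *Sox7*, *Sox18*, *Erg* and *Gata2* signals of its group. Its *Erg* signal of 741 lay below all wild type endothelial arrays (870.1 to 1022), so it was not nearer to wild type there. For *Sox17*, *Fli1* and *Ets1* it lay between arrays A and C.

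In podocytes 8 genes were tested and had lower means in Cd2ap-/- arrays. One of them, *Sox17*, reached the signal minimum only in wild type arrays and so entered only because it was higher there. Its difference of -0.42 was -0.17 with signals under 100 raised to 100. None was called by adjusted p, beside 0.0578% of all clusters called, 6 of the 8 stood at an unadjusted p under 0.05 (14.3% of all clusters), and 4 passed the screen as lower, where 4.34% of all clusters did. These were *Fli1* (-1.30, SE 0.32, adjusted p = 0.18), *Tbx3* (-1.17, SE 0.20, adjusted p = 0.13), *Erg* (-1.06, SE 0.29, adjusted p = 0.21) and *Ets1* (-0.88, SE 0.21, adjusted p = 0.16). For these 4, *Sox17* and *Gata5*, every Cd2ap-/- array lay below every wild type array, beside 14.3% of all clusters. The median difference over the 8 genes was -0.65, against -0.04 over all clusters. *Sox7* and *Tal1* were under the signal minimum in both groups. All 4 genes of the screen were called when Cd2ap-/- array A was left out (adjusted p from 0.016 to 0.044), where 2.44% of all clusters were called lower, and *Fli1*, *Ets1* and *Tbx3* were called in 1 fit over all 18 arrays, where 5.47% were. The number of members in the screen was 4 in each of the 6 fits with an array left out and under each of the 8 other settings. For *Erg* and *Tbx3* only 1 Cd2ap-/- podocyte array reached 100. Over the 8 other settings their differences ran from -1.10 to -0.83 and from -1.23 to -0.98.

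Endothelial transcripts had lower means in the same arrays. The sum over 24 endothelial genes was 8164, 8877 and 7112 in wild type podocyte arrays and 5160, 2827 and 2340 in Cd2ap-/- ones. Of these genes 19 were tested, and all 19 had lower means in Cd2ap-/- podocytes, with a median difference of -1.04. The screen was passed as lower by 13, where 4.34% of all clusters did. In wild type podocyte arrays 18, 19 and 17 of the 24 reached 100, and in Cd2ap-/- arrays 15, 9 and 9. The sizes of many of these differences thus rest in part on low signals. Genes that reached 100 only in wild type arrays could enter only if higher there, and were not counted apart. *Kdr* was at 544, 664 and 535 in wild type and at 244, 75.4 and 65.2 in Cd2ap-/- podocyte arrays, a difference of -2.44 (SE 0.46, adjusted p = 0.14). Its signals in Cd2ap-/- arrays B and C were under 100, so the size of this difference rests on low signals. Of 12 mesangial markers 10 had lower and 2 higher means in Cd2ap-/- podocytes, 3 lay below without overlap, 3 passed the screen as lower and none was called. The median difference over these 12 markers was -0.60. Their sums were 5203 to 6401 in wild type and 2666 to 5193 in Cd2ap-/- arrays. The sum over 7 erythroid genes was 4155, 3148 and 4148 in wild type and 5562, 889 and 429 in Cd2ap-/- arrays, so that array A stood apart from B and C. Of 12 podocyte markers 10 had lower means in Cd2ap-/- podocytes, 4 of them without overlap, and 1 passed the screen as lower, with a median difference of -0.16. Their sums were 18634 to 21010 in wild type and 16128 to 19604 in Cd2ap-/- arrays and overlapped. The sum over 10 tubule genes was 738 to 1187 in wild type and 651 to 693 in Cd2ap-/- podocyte arrays. Of 13 leukocyte markers 7 were tested, 5 had lower and 2 higher means in Cd2ap-/- podocytes, with a median difference of -0.52. None was called, and 1 passed the screen as higher. Their sums were 1270, 1638 and 1351 in wild type and 1705, 983 and 865 in Cd2ap-/- arrays. In sorted populations less RNA of a factor per cell and fewer cells that carry it cannot be told apart, and the part of these other transcripts in the podocyte differences of *Erg*, *Fli1*, *Ets1* and *Tbx3* was not tested. Other regulators that passed the screen as lower in Cd2ap-/- podocytes were *Mecom* (-1.51), *Epas1* (-1.25), *Elk3* (-1.02), *Hhex* (-1.0), *Ets2* (-0.89) and *Mef2c* (-0.70), 6 of 23 tested.

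**Figure D3:**
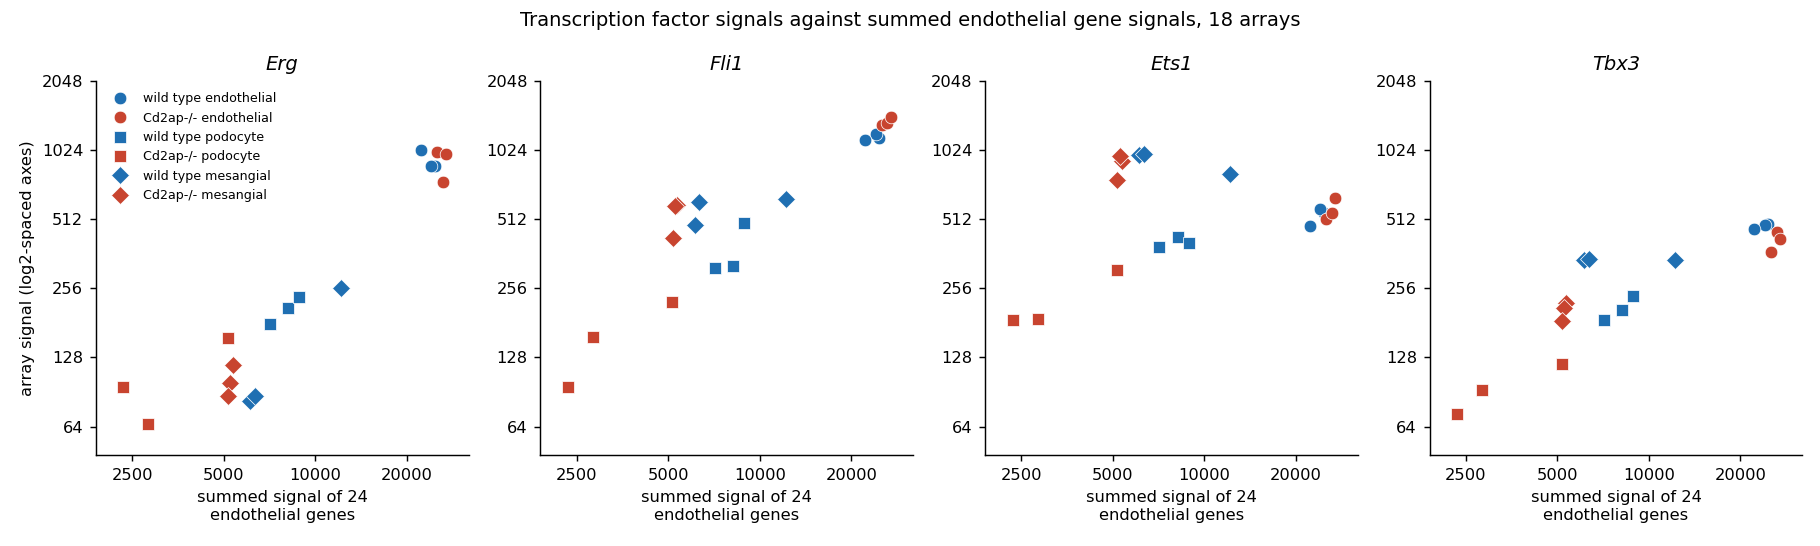
Signals of *Erg*, *Fli1*, *Ets1* and *Tbx3* in each of 18 arrays against the summed signal of 24 endothelial genes in the same array, both axes spaced by log2; circles are endothelial, squares podocyte and diamonds mesangial arrays, wild type in blue and Cd2ap-/- in red. The 3 Cd2ap-/- podocyte arrays have the lowest podocyte values on both axes, while mesangial arrays carry high *Ets1* at endothelial sums of 5170 to 12168.

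In mesangial cells *Tbx3* was the one member called. Its signals of 221, 209 and 184 in Cd2ap-/- arrays lay below 342, 344 and 342 in wild type arrays, a difference of -0.75 (SE 0.09, adjusted p = 0.015) where 1.68% of all clusters were called lower. It was also called under each of the 8 other settings tried and without array C, but not when Cd2ap-/- array B (adjusted p = 0.075), wild type array A (adjusted p = 0.057) or wild type array B (adjusted p = 0.073) was left out, while the difference stayed between -0.80 and -0.67. The differences of the other 6 genes tested were not called. Of these *Sox17* and *Gata5* reached the signal minimum only in wild type arrays, so they entered only because they were higher there, and with signals under 100 raised to 100 they were at -0.18 and -0.33. Those of *Sox17* (-0.57), *Gata5* (-0.55), *Sox18* (-0.40) and *Erg* (-0.30) included the high wild type array C. Without it *Sox18* and *Erg* changed sign, to 0.13 and 0.24, *Gata5* was at -0.14, and *Sox17* was under the signal minimum. *Fli1* (-0.11, interval -0.50 to 0.29) and *Ets1* (-0.07, interval -0.37 to 0.24) were near 0 and were at -0.04 and -0.16 without array C.

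Some genes that mark mesangial or endothelial cells also differed in the mesangial arrays. Of 12 mesangial markers 7 had lower and 5 higher means in Cd2ap-/- cells, and 3 were called lower and none higher. One of the 3 was *Pdgfrb*, at 1188, 988 and 1038 against 1481, 1706 and 1599 (adjusted p = 0.042, or 0.076 without wild type array C). Without array C 11 mesangial markers were tested, 6 had lower and 5 higher means, and *Itga8*, *Des* and *Art3* were called lower. Of the 24 endothelial genes 19 were tested, 17 had lower means in Cd2ap-/- mesangial cells and 3 were called lower, with a median difference of -0.39. Without array C 16 were tested, 9 had higher means and 3 were called lower. *Tek*, an endothelial receptor gene and one of the 3 in both fits, was called lower in Cd2ap-/- mesangial cells (-1.19, SE 0.23, adjusted p = 0.0497), with signals of 398, 323 and 324 against 575, 783 and 1090.5, and by -0.95 (adjusted p = 0.048) without array C. Their part in the *Tbx3* difference was not tested. *Epas1* was the only one of 21 tested regulators called in this comparison (-0.46, SE 0.09, adjusted p = 0.046), and it was not called without array C (adjusted p = 0.072).

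**Figure D4:**
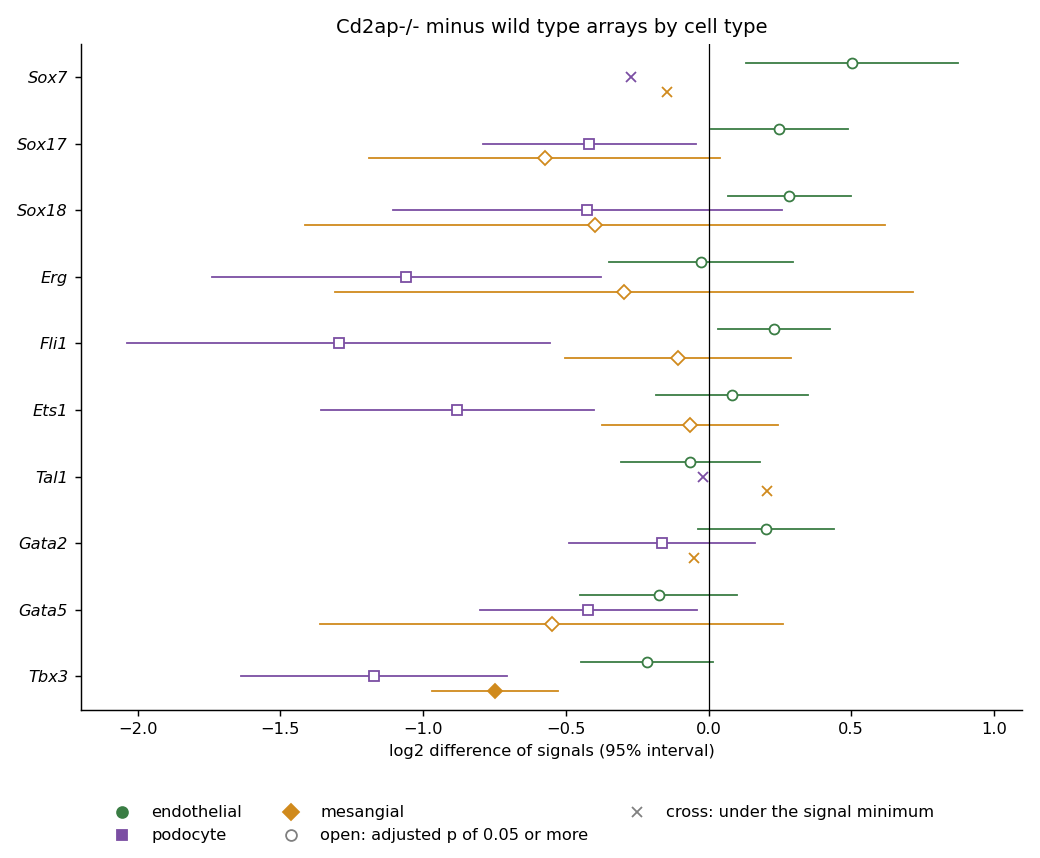
Log2 differences of Cd2ap-/- minus wild type arrays with 95% intervals in endothelial (circles), podocyte (squares) and mesangial (diamonds) cells for the 10 genes. Only *Tbx3* in mesangial cells, at -0.75, is filled for an adjusted p under 0.05; podocyte values lie left of 0, and crosses mark genes below the signal minimum.

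Whether the genotype effect differed between cell types was tested as an interaction over all 18 arrays. Between endothelial cells and podocytes 3 members were called, beside 1.86% of all clusters called in this direction. The effect was higher in endothelial cells by 1.52 for *Fli1* (SE 0.34, adjusted p = 0.034), by 0.96 for *Tbx3* (SE 0.21, adjusted p = 0.031) and by 0.96 for *Ets1* (SE 0.23, adjusted p = 0.045). The median over all clusters was 0.11. *Sox7* was at 0.77 (SE 0.20, adjusted p = 0.055), and was called under 2 of the 7 other settings, the stricter signal minimum (adjusted p = 0.046) and subtracted array medians (adjusted p = 0.024). All podocyte signals of *Sox7* were under 100, and with signals under 100 raised to 100 the value was 0.47 (adjusted p = 0.060). None of the 3 calls was made in every setting. Repeating the quantile normalization left none (adjusted p from 0.076 to 0.096), removing the signal minimum left *Tbx3*, and over 12 fits with 1 array left out *Fli1* was called in 5, *Tbx3* in 5 and *Ets1* in 1. Of the other regulators *Mecom* (1.77), *Epas1* (1.55), *Hhex* (1.39) and *Nr2f2* (0.91) were called, 4 of 27 tested. Between endothelial and mesangial cells no member was called, beside 1.07% of all clusters in either direction, and at an unadjusted p under 0.05 stood *Sox7*, *Sox17* and *Tbx3*, where 15.9% of all clusters did.

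The genes whose pattern over the 18 arrays was most like each member were read by Pearson's r of log2 signals over 9901 other genes. The arrays fall into 3 cell types that set most of this measure, so r describes a shared order of cell types and carries no test. *Erg* was most like *Gimap8* (r = 0.991) and *Plcb1*, *Sox17* like *Egfl7* (0.988) and *Pi16*, *Sox18* like *Gimap5* (0.983) and *She*, and *Sox7* like *Inpp5d* (0.985) and *Adam15*. *Fli1* was nearest to *Mef2a* (0.983) and *Ptprm*, *Gata5* to *Ppp1r16b* (0.978) and *Sema6a*, and *Gata2* to *Dnm3* (0.976) and *Stab1*. *Tbx3* was nearest to *Tek* (0.977) and *Smc1a*, and *Ets1*, with its mesangial peak, to *Pip4k2a* (0.970) and *Prkaa1*. For *Tal1* the highest values were 0.851 (*Rnd1*) and 0.839 (*Ppm1f*).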

How the data were processed

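RNA of sorted cells was amplified by a single round of RiboSPIA and hybridized to arrays with 28856 transcript clusters. The authors deposited an intensity per cluster and array on a linear scale, made by RMA (background correction, quantile normalization, probe summary) in Expression Console per the labels. The paper's methods name GeneSpring. The authors deposited 18 further columns, log2 of these values relative to the cluster's median, which were not used here. Log2 of the intensity was fitted with lmFit and eBayes in limma 3.58.1 and R 4.3.3 (11 comparisons, no covariates, only the arrays compared, or 18 for interactions). A cluster entered where 1 of the arrays compared, or more, reached 100. The pairwise fits were tested on simulated data with normal noise. Changes were placed only in clusters of higher signal, so changes in low signals, single outlying arrays and interactions were not covered.

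All 10 genes are named, with the cluster of highest mean signal where a symbol had several, the 2 most similar genes of each, and genes of lists of regulators, families and cell markers. The members and lists were chosen with earlier results of these data known. Alternatives were other signal minimums, 1 fit over 18 arrays, eBayes with trend, other scalings, a floor of 100, averaged clusters and leaving out each array. The number of arrays, 3 per group, limits the precision, and p-values cover the spread between these arrays. Promoters came from RefSeq (GRCm38.p6). The podocyte reporter and 1 marker gene are not reported here.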

Additional observations from a re-analysis of the deposited data

Results flagged for a closer look

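The effect of the *Cd2ap* genotype differed between endothelial cells and podocytes for 3 of the 10 genes, tested as an interaction in limma over 18 arrays, where 1.86% of all clusters were called in this direction. The differences were 1.525 for *Fli1* (adjusted p = 0.034), 0.9632 for *Ets1* (adjusted p = 0.045) and 0.9567 for *Tbx3* (adjusted p = 0.031) on the log2 scale. Over all settings and left-out arrays they lay between 1.20 and 1.81, between 0.76 and 1.20, and between 0.76 and 1.14, while the calls came and went. In the same podocyte arrays the sum over 24 endothelial genes was 7112 to 8877 in wild type and 2340 to 5160 in Cd2ap-/- cells, and its part in these differences was not tested.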

How the results depend on the processing

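Called clusters between the endothelial genotypes were 146, and became 241 with a signal of at least 100 in all 3 arrays of a group, 83 with no minimum, 226 with trend and robust eBayes and 271 after subtracting array medians. Between podocyte genotypes 7 became 0 with no minimum, 837 in 1 fit over 18 arrays (where 3 members were called lower), 4 with medians subtracted and 0 with signals under 100 raised to 100. Between mesangial genotypes 335 became 578 with the stricter minimum and 729 with trend and robust eBayes. Between Cd2ap-/- podocytes and mesangial cells 2627 became 5105 in the 18-array fit. For the interaction of endothelial cells and podocytes, 251 called higher became 931 with medians subtracted, 55 with quantile normalization repeated and 528 with the floor, 34 called lower became 93 with no minimum and 120 with the floor, and the 3 members became 1 with no minimum and 0 with repeated normalization. For that of endothelial and mesangial cells, 96 called higher became 214 with medians subtracted, 59 with repeated normalization and 273 with the floor, and 49 called lower became 95 with the floor. The cause of these changes was not tested.

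Of the values of single genes under these settings 722 kept their direction and side of the threshold, 8 were newly called, 9 lost a call and 8 changed sign, all of the last small and uncalled. With medians subtracted, the genotype difference in endothelial cells became 0.045 for *Erg* and 0.0076 for *Tal1*, the Cd2ap-/- podocyte minus mesangial difference of *Gata2* became -0.074, and the podocyte interaction of *Tal1* became 0.060. With normalization repeated, *Ets1* became -0.0099 between endothelial genotypes and *Gata2* -0.048 between Cd2ap-/- podocytes and mesangial cells. With the floor, *Sox17* became -0.012 between wild type and *Erg* 0.13 between Cd2ap-/- podocytes and mesangial cells.

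Leaving out 1 array gave 49 to 253 calls between endothelial genotypes (0 to 1 members in the screen as higher), 0 to 344 between podocyte genotypes (0 to 4 members called lower) and 50 to 304 between mesangial genotypes (0 to 1 members called lower, 1 to 2 in the screen). It gave 2078 to 2999 between wild type podocytes and mesangial cells (0 to 4 members called higher), 3067 to 5591 between Cd2ap-/- endothelial cells and podocytes, and 1245 to 3406 between Cd2ap-/- podocytes and mesangial cells (0 to 1 members called higher). The interaction with podocytes gave 26 to 1415 called higher (0 to 4 members) and 4 to 450 called lower, both highest without Cd2ap-/- podocyte array A, and that with mesangial cells 44 to 118 called higher. Signs turned for *Erg* (-0.11 to 0.12) and *Ets1* (-0.0021 to 0.15) between endothelial genotypes, and for *Fli1* (-0.22 to 0.049), *Ets1* (-0.16 to 0.039), *Sox18* (-0.75 to 0.13) and *Erg* (-0.58 to 0.24) between mesangial genotypes. They also turned between podocytes and mesangial cells for wild type *Sox18* (-0.027 to 0.86) and *Gata5* (-0.028 to 0.71) and for Cd2ap-/- *Erg* (-0.34 to 0.28) and *Gata2* (-0.019 to 0.087), and in the interactions for *Tal1* with podocytes (-0.11 to 0.0091) and *Erg* (-0.26 to 0.55) and *Gata5* (-0.032 to 0.71) with mesangial cells. No paired analysis was possible because the columns carry no replicate number shared between groups.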
